A study of Mus musculus with 8 samples.

Results

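The genes described here encode the liver's conjugation enzymes, the transferases that attach glutathione, glucuronic acid or sulfate to drugs, hormones, bile acids and reactive metabolites. Members were all genes on the array whose symbol starts with Gsta, Gstm, Gstp, Gstt, Gstk, Gstz, Gsto, Mgst, Ugt1, Ugt2, Ugt3 or Sult, each read by its probe of highest mean over the 8 arrays. This gave 51 of 16593 named genes (71 of 25697 probes), namely 24 glutathione S-transferases, 15 UDP-glucuronosyltransferases and 12 sulfotransferases. Whole-liver RNA came from 4 CF mice, which carry the ΔF508 change in the chloride channel gene Cftr, and from 4 wild-type (WT) littermates. All were 3-weeks old females of the C57BL/6J strain. Both genotypes were weaned at 21 days onto the same enriched diet, had diluted Colyte, a polyethylene glycol and electrolyte solution, as their drink, and were killed at 23 days. The labels do not say whether the ΔF508 change was on both Cftr copies, nor whether RNA of several animals was pooled. They number 4 replicates a genotype without saying how the samples were taken, so p-values measure the spread between these samples.

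Conjugation makes molecules more soluble so that they can leave in bile or urine. Glutathione S-transferases work mostly in the cytosol, with a membrane-bound branch named Mgst. UDP-glucuronosyltransferases sit in the endoplasmic reticulum and take glucuronic acid from a UDP-sugar, and sulfotransferases take sulfate from the cytosolic donor PAPS. Many of these genes are controlled in liver by the nuclear receptors CAR and PXR, by the oxidative stress factor NRF2 and, in rodents, by sex hormones and growth hormone.

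The arrays were single-colour bead arrays, and all values below are the deposited log2 levels, whose distribution is the same on every array. A level of 6.47 was taken as background, and a gene was tested if its probe exceeded it on at least 4 arrays. Differences are CF minus WT on the log2 scale with the standard error (SE) of the limma fit over all 12923 tested probes. A gene rose or fell if its Benjamini-Hochberg adjusted p was under 0.05. Precision is limited by there being 4 arrays a genotype. The values of bead arrays are intensities and not reads. Signals of different probes also depend on the probe, so that a high or low signal does not rank transcripts by amount. Since whole liver was used, fewer cells of a type and less RNA per cell cannot be told apart. The summed level of the hepatocyte markers lay between 16.35 and 16.46 in CF and between 16.36 and 16.45 in WT, and 0 of its 7 tested markers changed. The sum rests mostly on probes near the highest value on the arrays, 14.66, so it could hardly have moved and says little about hepatocyte content. Of the hepatocyte markers, the Fgb probe was under background, and the Alb probe averaged 7.92 in CF and 7.97 in WT.

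Some arrays carried transcripts of other organs. The kidney markers Kap, Slc34a1 and Umod were at 12.42, 11.99 and 10.85 on the array of WT 4, while all 5 kidney markers lay between 5.93 and 6.48, around background, on the other 7 arrays. The 10 exocrine pancreas markers summed to 15.44 in CF 1, 13.67 in CF 2, 12.16 in CF 3 and 10.89 in CF 4, against 11.82 in WT 1, 12.90 in WT 2, 16.02 in WT 3 and 11.00 in WT 4. Kidney signal was thus seen in 1 WT array alone. Pancreas signal was graded over the arrays, highest in WT 3 and CF 1 and next in CF 2 and WT 2. Results are therefore also given without WT 4, without WT 3 and CF 1, and without all 3 arrays. The fits without WT 3 and CF 1 still hold CF 2 and WT 2.

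**Figure D1:**
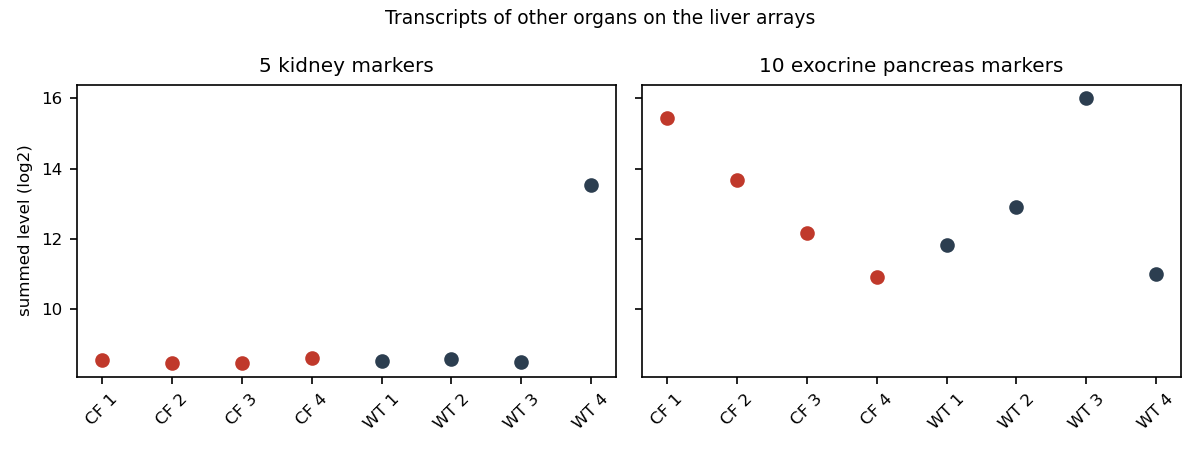
Summed log2 level of 5 kidney markers (left) and 10 exocrine pancreas markers (right) on each array, CF in red and WT in dark blue. WT 4 stands at 13.53 for kidney, where the other 7 arrays lie between 8.44 and 8.60, and CF 1 and WT 3 have the most pancreas signal.

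Of the 51 conjugation genes, 41 were tested, and in CF livers 13 fell, 5 rose and 23 did not pass. Over all 9144 tested genes 19.8% changed, with 8.79% lower and 11.0% higher in CF. The median difference of the 41 members was -0.27, against 0.02 over all tested genes. Among 23 tested glutathione S-transferases 7 fell and 2 rose, among 10 tested UDP-glucuronosyltransferases 4 fell and 0 rose, and among 8 tested sulfotransferases 3 rose and 2 fell. Median differences were -0.35, -0.23 and 0.37 for these classes in the same order. These are descriptions, since members were not tested as a set, and the difference between classes was not tested. Sult1e1 entered the test only through its CF arrays, as all 4 of its WT arrays were under background, so its difference follows in part from the filter. Changes of at least 2-fold were called for 8 members, 5 lower and 3 higher, where 1.66% of all tested genes changed that much. The 3 higher ones include Sult1e1 at its measured difference, whose bound is below 2-fold. The number of changed members was 11 without CF 3, 11 without WT 3 and 11 without WT 4. It was 9 without WT 3 and CF 1 together and 8 without WT 3, WT 4 and CF 1.

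**Figure D2:**
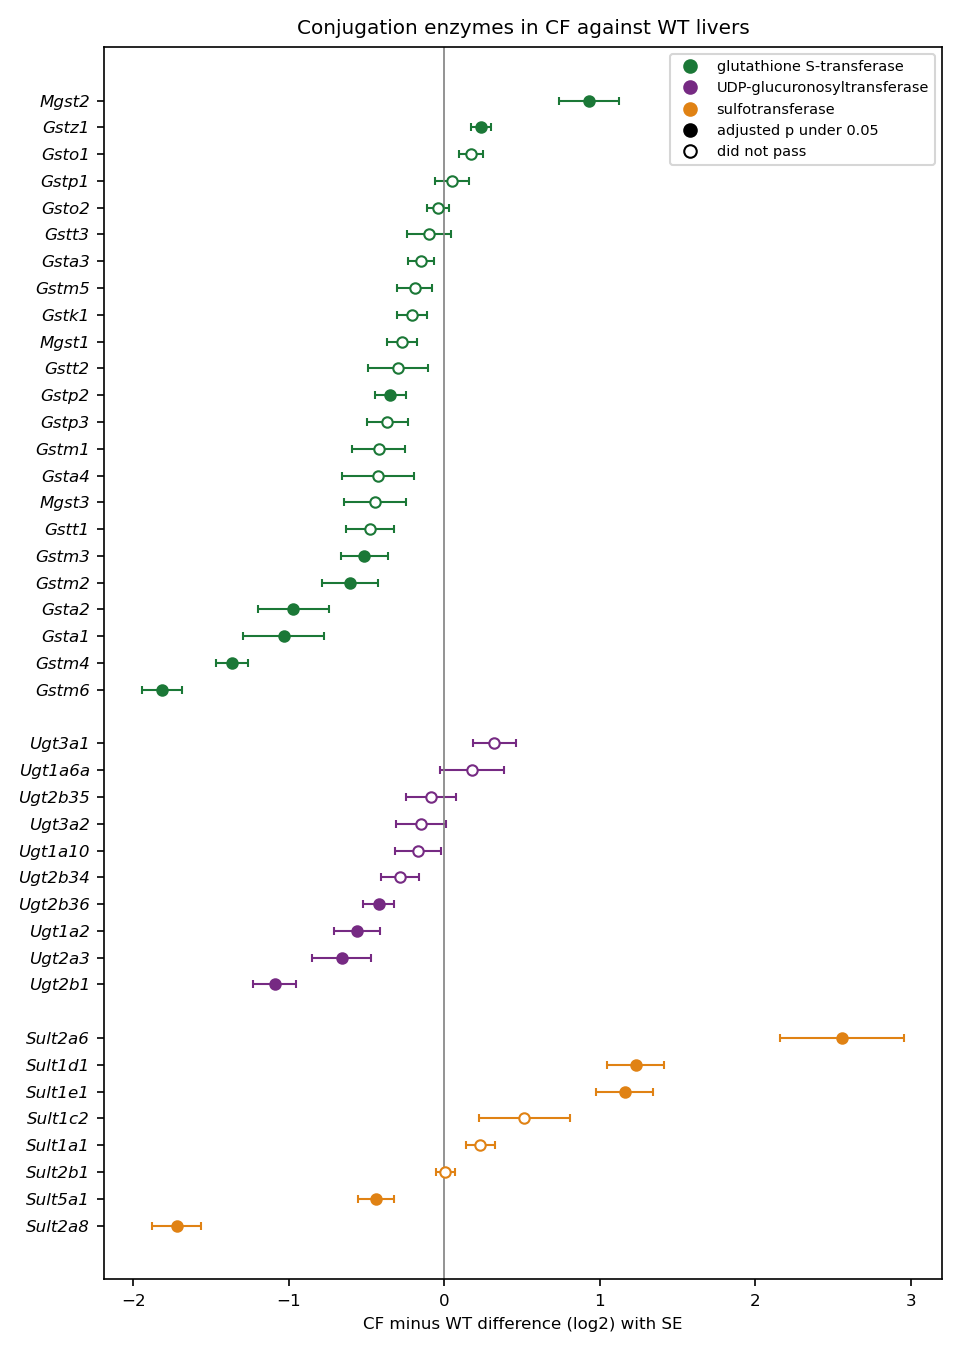
CF minus WT difference (log2, horizontal axis) with its SE for the 41 tested conjugation genes, grouped by class and ordered by difference within each. Filled points passed an adjusted p of 0.05. Most glutathione S-transferases and UDP-glucuronosyltransferases lie left of 0, while sulfotransferases spread from -1.72 for Sult2a8 to 2.56 for Sult2a6.

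Of 6 tested mu-class glutathione S-transferases, the Gstm genes, 4 fell in CF livers, and Gstm1 and Gstm5 did not pass. All 6 differences were negative. Gstm6 stood at 8.70, 9.06, 8.45 and 8.84 in CF 1 to CF 4, against 10.40, 10.55, 10.62 and 10.74 in WT 1 to WT 4. The 4 CF arrays lay far below the 4 WT arrays, a 3.52-fold lower level (difference -1.81 ± 0.13 SE, adjusted p = 5.9e-05). The other Gstm6 probe had nearly the same difference, -1.83 ± 0.11 SE. Gstm4 was at 7.98, 8.03, 7.66 and 8.11 in CF, against 9.45, 9.25, 9.22 and 9.31 in WT. Its groups did not overlap either, with a 2.57-fold lower level in CF (-1.36 ± 0.10 SE, adjusted p = 7.18e-05). Separation without overlap in this direction was seen in 10.5% of tested genes. Gstm2 averaged 12.13 ± 0.38 in CF and 12.73 ± 0.19 in WT (SD, n = 4 each). Its arrays read 12.34, 12.51, 11.64 and 12.01 in CF, against 12.85, 12.94, 12.57 and 12.58 in WT, so that the groups were close but did not overlap. It fell by 0.61 on the log2 scale (SE 0.18, limma adjusted p = 0.0414), and its other 2 probes fell too, by 0.61 and 0.83. Gstm3, whose probe was under background on 2 CF arrays, fell by 0.51 (limma adjusted p = 0.0423). Gstm1, the major mu-class enzyme of liver, averaged 12.81 ± 0.36 in CF and 13.23 ± 0.20 in WT (SD, n = 4 each) and did not pass, with overlapping arrays. Gstm5, at -0.19, did not pass either. Sequence similarity within the family is high, and whether each probe reads a single Gstm transcript was not tested. Gstm4 and Gstm6 kept their calls in all 19 alternative fits, with differences of -1.41 and -1.69 without WT 3, WT 4 and CF 1. The call of Gstm2 was lost without CF 3, CF 4 or any single WT array (adjusted p up to 0.0981), and Gstm3 passed in 1 of the 8 fits without a single array, the one without CF 4.

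The promoters of Gstm6 and Gstm4, the 2 mu-class genes that fell most, are shown because they lie in the same gene cluster on chromosome 3, with Gstm3, Gstm2 and Gstm1 between them. The sequences are from RefSeq on build GRCm38.p6, 250 bases before to 50 after the most upstream listed start, 5′ to 3′ on the minus strand, at chr3:107953417-107953716 and chr3:108044810-108045109.
Gstm6: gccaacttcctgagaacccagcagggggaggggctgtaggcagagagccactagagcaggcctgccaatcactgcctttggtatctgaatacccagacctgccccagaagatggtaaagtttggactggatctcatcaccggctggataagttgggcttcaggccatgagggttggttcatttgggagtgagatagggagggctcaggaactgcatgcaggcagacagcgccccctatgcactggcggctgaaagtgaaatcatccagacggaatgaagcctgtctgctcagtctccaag
Gstm4: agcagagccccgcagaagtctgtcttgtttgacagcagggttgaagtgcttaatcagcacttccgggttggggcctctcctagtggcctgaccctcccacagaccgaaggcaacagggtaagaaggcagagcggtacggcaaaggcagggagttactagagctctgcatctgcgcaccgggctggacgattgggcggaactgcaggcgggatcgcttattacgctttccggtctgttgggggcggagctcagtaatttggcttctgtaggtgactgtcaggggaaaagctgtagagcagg
No capitals appear in either, as none of the 6 motifs searched on both strands was found there. The TATA box was searched as TATAAA, which was present in 13.6% of 32851 promoters of the same length. The core of the antioxidant response element, which NRF2 binds, was searched as TGACNNNGC and was present in 12.4% of them. A half-site of nuclear receptors was searched as AGGTCA, with a share of 16.3%. The core of STAT sites, which growth hormone signalling uses, was searched as TTCNNNGAA, with a share of 8.3%. For the dioxin response element the core GCGTG had a share of 32.4%, and the longer HNF1 consensus one of 0.399%. Aligned end to end, the 2 promoters were identical in 47.4% of columns, which lies within the 39.2% to 50.9% found between all pairs of the 7 promoters examined.

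In the alpha class 2 of 4 tested genes fell and the others did not pass. Gsta1 and Gsta2 are alpha-class enzymes known in mouse liver as inducible by antioxidants. Gsta1 stood at 6.39, 6.54, 7.21 and 7.05 in CF, against 8.16, 8.18, 7.09 and 7.88 in WT. WT 3 fell within the CF range, and CF 1 was under background. The fall was 2.05-fold (-1.03 ± 0.26 SE, limma adjusted p = 0.0236). Gsta2 read 7.73, 7.96, 7.83 and 8.50 in CF, against 8.88, 9.04, 8.46 and 9.52 in WT. WT 3 was again the lowest WT array and lay below CF 4. Gsta2 was 1.96-fold lower in CF (-0.97 ± 0.23 SE, limma adjusted p = 0.0175). The transcripts of these genes are alike, and whether the probes separate them was not tested. Gsta3, whose probe had the highest signal of the members, averaged 13.74 ± 0.09 in CF and 13.89 ± 0.14 in WT (SD, n = 4 each) and did not pass. Gsta4, which clears lipid peroxidation products, was at -0.43 and did not pass. Gsta1 lost its call without CF 1, CF 2, WT 1, WT 2 or WT 4, with adjusted p between 0.00611 and 0.0606 over the 8 fits that left out 1 array. Gsta2 kept its call in those 8 fits. Without WT 3, WT 4 and CF 1 its adjusted p was 0.0578. The difference of Gsta2 was -0.79 without WT 4, the array with kidney transcripts.

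Of the 13 other tested glutathione S-transferases 2 rose and 1 fell. Mgst2, a membrane-bound enzyme that also makes leukotriene C4, rose. It was at 7.38, 7.12, 8.14 and 7.56 in CF, against 6.69, 6.83, 6.51 and 6.46 in WT, with no overlap and with 1 WT array under background. The difference of Mgst2 was 0.93 ± 0.19 SE (1.91-fold, limma adjusted p = 0.0102). Gstz1, the maleylacetoacetate isomerase of tyrosine breakdown, rose by 0.23 ± 0.06 SE (limma adjusted p = 0.0319). Its CF arrays lay between 13.33 and 13.49 and its WT arrays between 13.11 and 13.23, a small shift without overlap. Gstp2, a pi-class gene, fell by 0.35 (SE 0.10, limma adjusted p = 0.0418), while Gstp1 had 0.05 on its probe of highest signal and did not pass on any of its 3 probes. These pi-class transcripts are alike, and whether the probes separate them was not tested. Gstp3, of the same class, had -0.37 and did not pass. Mgst1, a microsomal form, averaged 13.41 ± 0.09 in CF and 13.69 ± 0.18 in WT (SD, n = 4 each) and did not pass, nor did Mgst3 at -0.45. The tested theta-class genes Gstt1, Gstt2 and Gstt3 had differences of -0.48, -0.30 and -0.10. Gstk1 of mitochondria and peroxisomes had -0.21, and the omega-class genes Gsto1 and Gsto2 had 0.17 and -0.04, and none of these 6 passed. Mgst2 kept its call without any single array, but its adjusted p was 0.0516 without WT 3 and CF 1 and 0.126 without WT 3, WT 4 and CF 1. Gstz1 passed in 2 of the 8 fits without a single array, those without CF 1 or WT 2, and Gstp2 in the 2 without WT 2 or WT 3. The count of changed glutathione S-transferases was 5 without CF 2, 5 without CF 3, 4 without WT 1 and 4 without WT 4.

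UDP-glucuronosyltransferases that changed were all lower in CF. Ugt2b1, of the subfamily that glucuronidates steroids and bile acids, showed the largest fall. It stood at 9.73, 10.07, 10.03 and 10.28 in CF, against 10.94, 11.12, 11.44 and 10.97 in WT. Every CF array was below every WT array, a 2.13-fold lower level (-1.09 ± 0.14 SE, limma adjusted p = 0.00103). Ugt2a3 read 7.76, 8.60, 8.13 and 8.42 in CF, against 8.66, 8.66, 9.21 and 9.03 in WT. The highest CF array, CF 2, came within a small distance of the lowest WT array. Ugt2a3 fell by 0.66 (SE 0.19, limma adjusted p = 0.0380). Its other probe was under background on all arrays and not tested. The difference of Ugt2a3 was -0.40 without WT 3 and CF 1 and -0.27 without WT 3, WT 4 and CF 1. Ugt2a3 passed in neither of these fits (limma adjusted p = 0.154 and 0.339). Ugt2b36, with the highest probe signal of its class, averaged 12.95 ± 0.20 in CF and 13.38 ± 0.10 in WT (SD, n = 4 each). It fell by 0.42 (SE 0.10, limma adjusted p = 0.0199), and its other probe fell by 0.52. Ugt1a2 was close to background, at 6.69 ± 0.23 in CF and 7.25 ± 0.26 in WT (SD, n = 4 each), and fell by 0.56 (limma adjusted p = 0.0272). The other Ugt1a2 probe was under background on all arrays and not tested. The Ugt1a transcripts share their final exons, so a probe there reads several of them, and where these probes lie was not examined. Ugt1a10, at 12.26 ± 0.31 in CF and 12.43 ± 0.16 in WT (SD, n = 4 each), and Ugt3a2, which uses sugars other than glucuronic acid, at 12.51 ± 0.35 in CF and 12.66 ± 0.15 in WT (SD, n = 4 each), did not pass. Ugt1a6a, which takes phenols, had a difference of 0.18 on its brightest probe and of -0.15 and -0.22 on its other 2, and none passed. Ugt2b34 and Ugt2b35 had -0.29 and -0.09 and did not pass. Ugt3a1 had 0.32 with an adjusted p of 0.134 on all 8 arrays, and 0.43 with an adjusted p of 0.0483 without WT 4. The probes of Ugt2a1, Ugt2a2, Ugt2b37, Ugt2b38 and Ugt2b5 were under background and not tested. Ugt2b1 kept its call in all 19 alternative fits, with a difference of -0.91 without WT 3, WT 4 and CF 1. Ugt2b36 lost its call without CF 3 or WT 3, Ugt1a2 without CF 3, CF 4, WT 3 or WT 4, and Ugt2a3 without CF 1, CF 3, WT 3 or WT 4, with adjusted p up to 0.0597, 0.0753 and 0.100. In the fit without CF 3 and in that without WT 3, 1 glucuronosyltransferase passed, and without WT 4, 2 fell and 1 rose.

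Among sulfotransferases 3 genes rose and 2 fell. Sult2a6, of the hydroxysteroid sulfotransferase family, read 8.53, 9.68, 10.49 and 8.57 in CF, against 7.01, 7.03, 6.42 and 6.59 in WT. All CF arrays were higher, and they were widely spread, with CF 2 and CF 3 well above CF 1 and CF 4. The level averaged 9.32 ± 0.95 in CF and 6.76 ± 0.30 in WT (SD, n = 4 each), with 1 WT array under background. Sult2a6 was 5.88-fold higher in CF (2.56 ± 0.40 SE, limma adjusted p = 0.00287). Its neighbour Sult2a8, which in mouse sulfonates bile acids, went the other way. Sult2a8 stood at 9.46, 9.70, 9.85 and 9.54 in CF, against 11.08, 11.10, 11.76 and 11.49 in WT. Its groups lay far apart, with a 3.29-fold lower level in CF (-1.72 ± 0.16 SE, limma adjusted p = 0.000206). Of the 8 Sult2a genes in the RefSeq cluster on chromosome 7, these were the 2 with a probe among the members, and they lie next to each other. The other Sult2a genes were not analysed here, and whether the Sult2a6 probe also reads them was not tested.

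Sult1d1, which in mouse sulfonates catecholamines, was at 11.67, 11.68, 12.31 and 11.56 in CF, against 10.43, 10.26, 10.73 and 10.88 in WT. The groups did not overlap, as in 13.9% of tested genes for this direction, and CF 3 stood above the other CF arrays. Sult1d1 was 2.35-fold higher in CF (1.23 ± 0.18 SE, limma adjusted p = 0.00229). Its other probe was under background on all arrays and not tested. Sult1e1, the estrogen sulfotransferase, was at 7.15, 7.77, 7.65 and 6.86 in CF, against 6.12, 6.30, 6.27 and 6.10 in WT. As every WT array was under background, the CF level was at least 1.85-fold higher, or at least 0.89 on the log2 scale (limma adjusted p = 0.00295). Sult5a1, an orphan member, fell by 0.44 (SE 0.11, limma adjusted p = 0.0261) with an SD of 0.16 among CF arrays and 0.20 among WT arrays (n = 4 each). Sult1a1, the main phenol sulfotransferase, averaged 13.48 ± 0.17 in CF and 13.25 ± 0.10 in WT (SD, n = 4 each). Its groups did not overlap, but it did not pass (0.23 ± 0.09 SE, limma adjusted p = 0.121). Sult1c2 had 0.51 ± 0.29 SE, with CF 3 and CF 4 high at 9.65 and 9.51, and Sult2b1, the cholesterol sulfotransferase, had 0.01, and neither passed. Sult1b1, Sult1c1, Sult3a1 and Sult4a1 were under background and not tested. Sult2a6, Sult2a8, Sult1d1 and Sult1e1 kept their calls in every alternative that gave them a value. Without WT 3, WT 4 and CF 1 the differences of Sult2a6, Sult2a8 and Sult1e1 were 2.56, -1.39 and 1.22, the last as measured, and the adjusted p of Sult1d1 was 0.0164. Sult5a1 lost its call without CF 1, CF 2, CF 4, WT 1, WT 3 or WT 4 (adjusted p up to 0.0731).

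**Figure D3:**
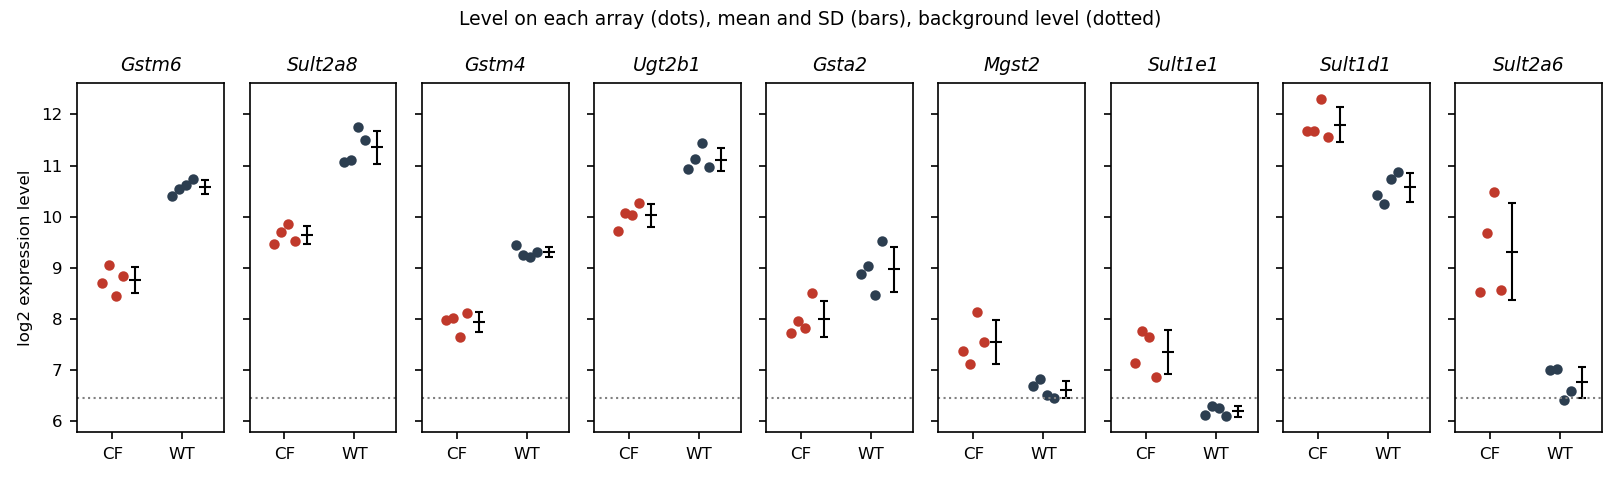
Log2 level on each array (dots, CF in red on the left, WT in dark blue on the right) with mean and SD (bars) for the 9 members that passed in all 8 fits without a single array, and the background level of 6.47 (dotted). The 4 CF dots lie apart from the 4 WT dots in each panel but that of Gsta2, and all WT dots of Sult1e1 lie under background.

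Promoters of the neighbours Sult2a6 and Sult2a8, which changed in opposite directions, and of Sult1d1 are shown. They were picked after the motif search, because a motif found in Sult2a6 and Sult1d1 was not found in Sult2a8. That contrast thus follows from the choice, and a role of the motif in the differences was not tested. The sequences are from RefSeq on build GRCm38.p6, cut in the same way as those of the Gstm genes. They lie on the minus strand, at chr7:14254821-14255120, chr7:14446538-14446837 and chr5:87568957-87569256. Capitals mark matches to the 6 motifs given above on either strand.
Sult2a6: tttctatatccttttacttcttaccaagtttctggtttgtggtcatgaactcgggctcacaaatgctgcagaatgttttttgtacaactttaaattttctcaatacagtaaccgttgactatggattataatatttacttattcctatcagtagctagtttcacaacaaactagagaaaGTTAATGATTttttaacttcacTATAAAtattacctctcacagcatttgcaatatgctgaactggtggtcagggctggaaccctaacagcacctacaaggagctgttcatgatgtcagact
Sult2a8: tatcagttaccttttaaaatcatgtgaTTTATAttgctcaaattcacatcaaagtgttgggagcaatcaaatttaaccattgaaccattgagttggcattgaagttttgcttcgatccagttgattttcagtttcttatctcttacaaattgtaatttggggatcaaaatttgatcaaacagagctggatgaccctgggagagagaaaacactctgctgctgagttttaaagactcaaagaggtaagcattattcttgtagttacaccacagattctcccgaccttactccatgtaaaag
Sult1d1: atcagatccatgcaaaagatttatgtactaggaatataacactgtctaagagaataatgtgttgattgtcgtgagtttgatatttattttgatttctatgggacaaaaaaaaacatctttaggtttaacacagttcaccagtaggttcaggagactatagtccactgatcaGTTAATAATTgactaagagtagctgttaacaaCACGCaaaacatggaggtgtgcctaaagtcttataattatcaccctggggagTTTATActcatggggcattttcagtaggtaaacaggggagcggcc
The HNF1 consensus, whose factor is a liver-enriched regulator, matched at -71 from the start of Sult2a6 and at -79 from that of Sult1d1. The letters TATAAA matched in all 3, on the sense strand in Sult2a6 alone, at -49. In Sult2a8 and Sult1d1 they matched on the opposite strand, at -223 and at 6, the latter after the start. Of 47 members with a promoter in the table, 3 held the HNF1 motif, the third being Ugt1a10, which did not pass, and over all promoters the share was 0.399%. The remaining match in the promoter of Sult1d1 was to the dioxin response element core. In the promoters of Ugt2b1 and Sult1e1, which are not printed, the only match was an AGGTCA half-site in Sult1e1. The promoter of Sult1e1, which also rose, thus held no HNF1 motif. A match describes letters in this window and shows no binding.

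On chromosome 5 Ugt2 and Sult1 genes share a cluster. The RefSeq order there runs Ugt2b34, Ugt2b1, Ugt2b35, Ugt2b36, Ugt2b5, Ugt2b37, Ugt2a3, Ugt2b38, Ugt2a1, Ugt2a2, Sult1b1, Sult1d1 and Sult1e1, and all 13 genes are members. At one end all 5 tested Ugt2 genes had negative differences, with Ugt2b1, Ugt2b36 and Ugt2a3 passing. At the other end Sult1d1 and Sult1e1 rose. The other 5 Ugt2 genes of the cluster and Sult1b1 were under background and not tested. In the Gstm cluster on chromosome 3 all 6 members had lower means in CF, and in the Gsta cluster on chromosome 9 Gsta4, Gsta1 and Gsta2 had too. Gsta3 lies on chromosome 1, outside that cluster.

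**Figure D4:**
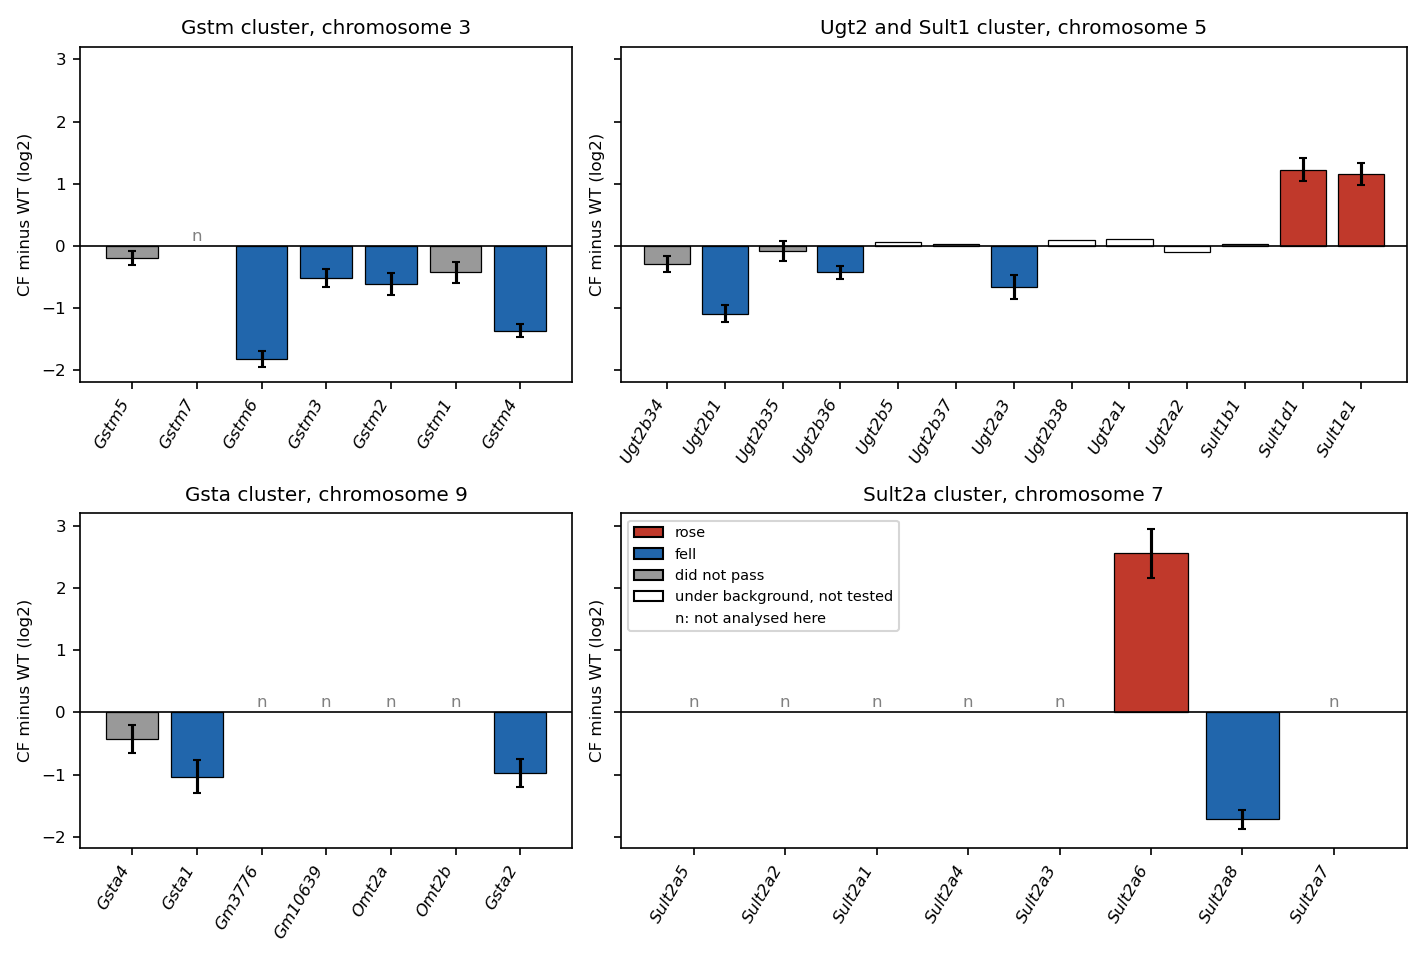
CF minus WT difference (log2, vertical axis) with SE for the genes of 4 clusters, in their RefSeq order and evenly spaced, with no distance implied. Red bars rose, blue bars fell, grey bars did not pass and white bars were under background. Bars point down across the Gstm and Gsta genes, and on chromosome 5 the called Ugt2 genes point down and Sult1d1 and Sult1e1 up. The bar of Sult1e1 is the measured difference, 1.16, against WT arrays under background.

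The 3 members of highest probe signal in each class were Gsta3, Mgst1 and Gstz1, then Ugt2b36, Ugt3a2 and Ugt1a10, then Sult1a1, Sult1d1 and Sult2a8. Of these 9, Gstz1 and Sult1d1 rose, Ugt2b36 and Sult2a8 fell and 5 did not pass. Members varied slightly more between CF than between WT arrays, with a median SD of 0.24 in CF and 0.20 in WT, and the SD was larger in CF for 27 of 41. This spread was not compared with that of all tested genes. The 23 members that did not pass had differences from -0.48 for Gstt1 to 0.51 for Sult1c2, 16 of them negative. The lowest adjusted p among these was 0.0574, for Gstt1. The 10 untested members never exceeded 6.44 on any array. More than 1 tested probe was present for 8 members, and in 6 of these all probes had differences of the same sign, Ugt1a6a and Gstp1 being the exceptions. Gsta3 had -0.15 on its brightest probe and -0.31 on its other, which did not pass (limma adjusted p = 0.0626). On brightest and dimmest probes Mgst1 had -0.27 and -0.32, Ugt2b36 -0.42 and -0.52, and Gstm2 -0.61 and -0.83. For Gstm6 and Mgst3 the probes differed little. Whether reading a gene by its brightest probe reduces its difference was not tested.

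**Figure D5:**
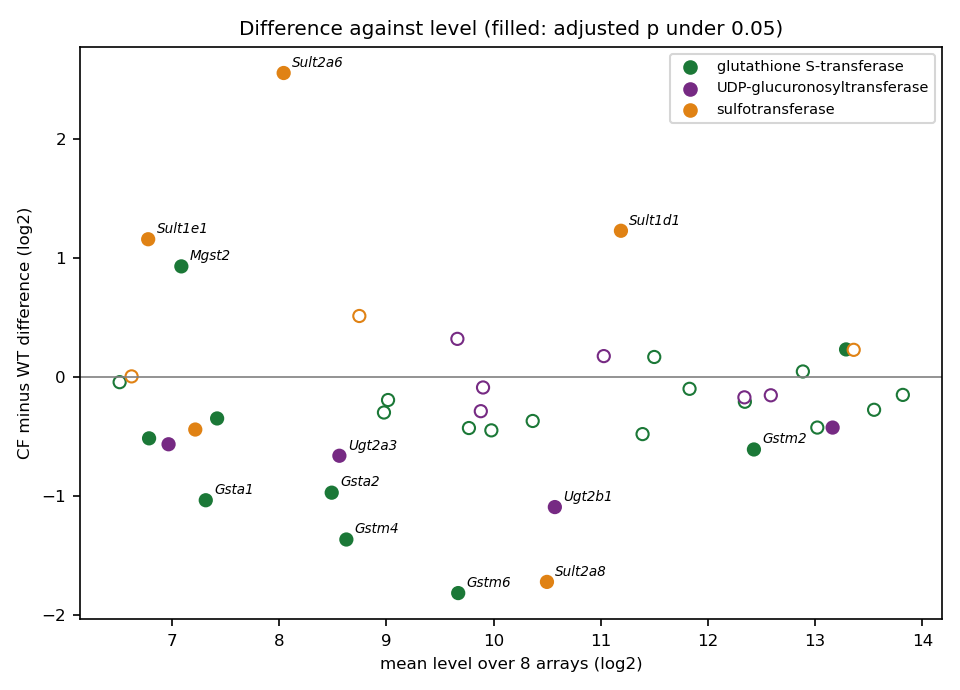
CF minus WT difference (log2, vertical axis) against mean probe signal over 8 arrays (log2, horizontal axis) for the 41 tested members, coloured by class and filled where adjusted p was under 0.05. Members whose difference was at least 0.6 in size and passed are named. The members with a signal above 12 lie between -0.61 for Gstm2 and 0.23 for Gstz1. Whether differences are reduced at high signal was not tested.

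Genes that supply or use the conjugation donors were set beside the share of 19.8% that changed among all tested genes, and differences between these lists were not tested. For glutathione supply and turnover, 1 of 10 tested genes fell and 0 rose, with a median of -0.12. The faller was Cbs, which starts the conversion of homocysteine to cysteine, with -0.39 ± 0.11 SE (limma adjusted p = 0.0361). Gclc and Gclm, the subunits of the rate-limiting enzyme of glutathione synthesis, had -0.20 and -0.05 and did not pass. Gss and Oplah of the same list had 0.27 and 0.25 and did not pass either. For supply of UDP-glucuronic acid and glucuronide turnover, the tested genes were Ugp2, Slc35d1, Gusb and Slc35a3. At an adjusted p under 0.05, 0 of these 4 changed, with a median of 0.03, and 0 had an unadjusted p under 0.05. The probe of Ugdh, which makes UDP-glucuronic acid, was under background. For sulfate activation and turnover, 3 of 7 tested genes fell and 1 rose, with a median of -0.31. Papss1, which makes PAPS, averaged 8.60 ± 0.05 in CF and 9.18 ± 0.19 in WT (SD, n = 4 each, limma adjusted p = 0.0032). Arsa, the lysosomal arylsulfatase A, fell by 0.92 (SE 0.06), and Slc35b3, a Golgi PAPS transporter, rose by 0.59 (SE 0.10). Of 4 tested export pumps, Abcc6 fell by 0.34 (limma adjusted p = 0.0448), and Abcc2 and Abcc3, which carry conjugates to bile and blood, had -0.34 and -0.58 and did not pass. The list median was -0.34.

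Among regulators of conjugation genes, 3 of 10 tested genes rose and 1 fell, with a median of 0.13. Nr1i3, which encodes CAR, averaged 10.11 ± 0.25 in CF and 9.52 ± 0.15 in WT (SD, n = 4 each, limma adjusted p = 0.0119). Nr1h4, which encodes the bile acid receptor FXR, rose by 0.64 (SE 0.11), Keap1, the inhibitor of NRF2, rose by 0.33 (SE 0.09), and Foxa2 fell by 0.49 (SE 0.14). Nfe2l2, which encodes NRF2, and Nr1i2, which encodes PXR, had -0.05 and 0.19 and did not pass. Among 13 other tested phase 2 and related enzymes 3 fell and 1 rose, with a median of -0.02. The faller with the lowest adjusted p was Glyat, the glycine N-acyltransferase, with -0.69 ± 0.13 SE, Nqo2 had -0.74 ± 0.17 SE, and the riser was Nnmt, the nicotinamide methyltransferase, with 0.86 ± 0.16 SE. Nat1 also fell, by 0.24.

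Because several conjugation genes are sex-biased in mouse liver, genes of known bias were set beside them. Of 6 tested female-biased genes 2 rose and 3 fell, with a median of -0.19, and of 8 tested male-biased genes 2 rose and 5 fell, with a median of -0.45. A1bg and Cux2, both female-biased, had -2.51 ± 0.27 SE and 1.74 ± 0.26 SE, and Hao2 of the same list had -1.15 ± 0.18 SE. Cyp7b1, a male-biased hydroxylase, had -1.02 ± 0.10 SE. Hsd3b5 and Mup20 of the male-biased list fell too (limma adjusted p = 0.00221 and 0.00491). Their CF means were under background, so these falls were at least 1.59 and 2.16 on the log2 scale. Cyp2d9 and C6 of that list rose, by 0.66 and 0.48. Both lists thus held genes of either direction. Of markers of other liver cells, 0 of 4 cholangiocyte, 1 of 4 macrophage, 2 of 5 endothelial and 2 of 6 stellate genes changed, with Lyve1 of the sinusoidal endothelium at 1.35 ± 0.12 SE, Marco of macrophages at 1.08 ± 0.30 SE and the stellate genes Dcn at 0.32 and Lrat at -0.54. Of lymphocyte, erythroid and exocrine pancreas markers, 0 of 3, 0 of 3 and 0 of 10 changed in the limma fit. At an unadjusted p under 0.05, 0 of the hepatocyte, cholangiocyte, lymphocyte, erythroid and pancreas markers passed either. Lgals4 was the 1 tested intestine marker and rose by 0.94 (SE 0.22). The summed level of macrophage markers lay between 11.77 and 12.28 in CF and between 11.73 and 12.12 in WT, and that of endothelial markers between 12.73 and 12.83 in CF and between 12.59 and 12.82 in WT. For stellate markers it was 13.28 to 13.56 in CF and 13.07 to 13.29 in WT. For intestine markers it was 9.40 to 10.02 in CF and 9.19 to 9.35 in WT. The higher intestine sum in CF rests on Lgals4, which averaged 8.76 in CF and 7.82 in WT. Fabp2, Vil1, Cdx2, Sis and Muc13 were not tested and had differences from -0.09 to 0.05. The stellate sum rests mostly on Dcn and Reln. Lrat, Des, Col1a1 and Col3a1 had negative differences, and the median of the stellate list was -0.19. The endothelial sum rests mostly on Clec4g, which had -0.16 and did not pass, while the median of that list was 0.31. Of the macrophage markers, Clec4f, Adgre1 and Vsig4 had -0.11, -0.10 and 0.20 and did not pass. The median of the macrophage list was 0.05. The part of these cells in the results above was not tested.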

How the data were processed

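Liver RNA of 4 CF and 4 WT mice was read on single-colour bead arrays, and GenomeStudio is the software per the submitters' processing notes. The deposited log2 values (25697 probes, 8 arrays) were used. Their sorted values were equal across arrays to within 0.000351, as quantile normalization leaves them, and differences in total signal are thus removed. The background correction is not given in the sources used here. The scanner table was not used, as its 32 columns carry chip positions (1 chip) that nothing in the labels ties to samples.

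The background limit was set at 1.645 spreads (0.173 each, from values under the peak of the distribution) above that peak, 6.18. Probes above this level of 6.47 on at least 4 arrays were tested by fitting genotype alone in limma 3.58.1 (R 4.3.3), with moderated two-sided statistics, and Benjamini-Hochberg adjustment over 12923 probes and a threshold of 0.05. The fit was tested on simulated data. Gene names are those of the platform annotation; all 51 members matched RefSeq with 0 changed symbols. Gene order and promoters are from RefSeq, and no coordinates of the probes are given, since the files name no genome build. A bound on a difference is the distance of the higher mean from background.

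The members, lists, tests and most alternatives were chosen with earlier results of these data known, and leaving out WT 3, WT 4 and CF 1 was added after the kidney markers were seen. Every changed member is named, with array values for the 12 largest changes, also the 3 members of highest signal in each class, and up to 3 genes of each other list by adjusted p. Other genes named were chosen after their values were seen. Nothing states that equal replicate numbers pair animals, and deviations from the genotype mean correlated at -0.33, 0.06, -0.29 and 0.09 between equal numbers.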

Additional observations from a re-analysis of the deposited data

Results flagged for a closer look

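In 3 of the 82 groups of 4 arrays (41 tested members in each genotype) 1 array stood apart from the other 3 by Dixon's criterion, where chance gives about 1 in 20. Ugt1a6a was at 10.28 in WT 1, against 11.07 to 11.21 on the other WT arrays. Sult1a1 was at 13.10 in WT 2, against 13.28 to 13.30 on the other WT arrays, and its group still did not overlap the CF arrays. Sult1d1 was at 12.31 in CF 3, against 11.56 to 11.68 on the other CF arrays, and without CF 3 its difference was 1.06, the smallest of the 8 fits without a single array. The cause was not tested for any of these.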

How the results depend on the processing

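None of the members' differences that were called changed sign in any of the alternatives run. Single arrays left out in turn gave 11 to 16 changed members, 4 to 7 glutathione S-transferases, 1 to 4 UDP-glucuronosyltransferases and 4 to 5 sulfotransferases, and 1612 to 2090 of all probes. Without WT 3 and CF 1 the counts were 9, 4, 1 and 4, with 1060 probes, and without WT 3, WT 4 and CF 1 they were 8, 3, 1 and 4, with 618 probes; fewer arrays also lower the power of these fits. At an adjusted p under 0.01, 7 members passed, 2, 1 and 4 by class, with 992 probes. Testing only probes above background on all 8 arrays left 3 changed sulfotransferases, as Sult1e1 and Sult2a6 were not tested there. With the replicate number as a block 12 members passed, 1 of them a UDP-glucuronosyltransferase, with 1440 probes. No paired design is stated, the numbers do not mark shared animals in the labels, and no array correlated best with its own number. Under no filter, array weights, another variance prior, cyclic loess and a floor at background, 14 to 19 members passed, and with a gene's probes averaged 18 did. Cyclic loess left 4 risers and 15 fallers among members, and over all probes 1153 higher and 1275 lower in place of 1337 and 1137. Signal near background limits the size of differences for Sult1e1, Sult2a6, Gstm3, Gsta1, Ugt1a2 and Mgst2.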
